A study of Mus musculus with 6 samples.

Results

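Macrophages and monocytes are represented here by 10 genes, chosen by name: C1qa, C1qb, C1qc, Vcam1, Axl and Adgre1 as genes of C1q-type resident macrophages, F13a1 and Ms4a6c as genes of monocytes, and Csf1r and Cd68, which both kinds of cell express. All 10 were found by Ensembl identifier among the 24965 genes of the deposited table, and all 10 were among the 13739 genes tested. The RNA came from donor cells recovered at 6 h after bone marrow transplantation (BMT), with 3 WT and 3 Hemgn-/- libraries. Donor marrow was from CD45.2+ mice, either WT or carrying the Hemgn-/- edit in the whole body, a loss of bases in the coding sequence, and in both groups the recipients were CD45.1+ mice given 9 Gy as a split dose. By the series text and the paper, the sorted donor cells were HSPCs (hematopoietic stem and progenitor cells), lineage-negative and positive for both Sca-1 and c-Kit, but c-Kit is missing from the sample labels. Injection route and library kit are also given differently. The paper describes 3 biological replicates, but no source used here says whether a library held 1 recipient or a pool. The p-values therefore measure the spread between these libraries, which may be partly technical.

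Resident macrophages of the bone marrow take up dying cells and the nuclei that red cell precursors expel, and many of them make C1q, the first component of the classical complement pathway. Monocytes are made in the marrow from progenitors, leave it for the blood and can turn into macrophages in tissues. Both express the receptor for colony-stimulating factor 1 (CSF1), and neither belongs to a lineage-negative stem and progenitor gate.

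The markers of other cells bear on what these libraries held. Hemgn itself was at 5.64, 2.96 and 4.68 FPKM (fragments scaled to the length of the gene and the depth of the library) in WT and at 0.755, 0.913 and 1.60 FPKM in Hemgn-/- libraries. Summed over 8 neutrophil markers, the level was 72151 to 77774 FPKM in WT and 46124 to 51490 FPKM in Hemgn-/- libraries, and over 5 B cell markers it was 1153 to 1212 and 1373 to 1543 FPKM. Kit, which encodes c-Kit, was at 6.58 ± 0.581 and 5.68 ± 0.206 FPKM (SD, n = 3), and Ly6a, which encodes Sca-1, at 9.38 ± 1.01 and 14.7 ± 3.01 FPKM (limma adjusted p = 0.0642). Transcripts of lineage-positive cells far exceeded both markers of the gate in both groups. Of the 9 tested HSPC markers, 6 were higher in Hemgn-/- libraries without overlap (Ly6a, Cd34, Flt3, Meis1, Cd48 and Slamf1) and 1, Kit, was lower without overlap. Over all genes tested, 19.2% were higher and 8.18% lower without overlap, or 27.4% in either direction. Summed over 5 erythroid markers the level was 445 to 531 FPKM in WT and 23.8 to 38.4 FPKM in Hemgn-/- libraries, and over 7 dendritic cell markers 7.93 to 9.74 and 16.5 to 17.7 FPKM. Counts of genes past the test were 5 of 8 neutrophil markers lower, 3 of 4 tested erythroid markers lower, 3 of 5 B cell markers higher, 1 of 5 tested dendritic markers higher and 2 of 9 tested HSPC markers higher. Of all genes tested, 4.37% passed as higher and 2.09% as lower. None of 5 T cell, 5 tested endothelial and 2 tested stromal markers passed in limma (0, 2 and 0 at an unadjusted p under 0.05, and 0, 1 and 0 by voom). No marker of these lists was at 0 in all 6 libraries, and Mecom, Lepr, Pdgfrb, Kitl, Col3a1, Cdh5, Slc4a1, Xcr1 and Zbtb46 were under 1 FPKM in each. The part of these cells in the results below was not tested. In bulk RNA, fewer macrophages and less RNA per macrophage cannot be told apart. Whether some of this RNA came from cells of the CD45.1+ recipients, rather than from donor cells, was not tested either.

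The 10 genes did not move as a block. Limma was run on log2(FPKM + 1), with p-values adjusted over every tested gene (Benjamini-Hochberg). At an adjusted p under 0.05, 4 genes were higher in Hemgn-/- libraries (Csf1r, Adgre1, F13a1 and Ms4a6c). By the same rule 2 were lower (C1qb and Vcam1) and 4 passed in neither direction. Over all genes tested, 4.37% passed as higher and 2.09% as lower, 6.46% in either direction. The levels in the 3 WT and the 3 Hemgn-/- libraries did not overlap for 8 of the 10 genes, 4 higher and 4 lower, against 19.2% and 8.18% of all genes tested, or 27.4% in either direction. At the thresholds of the study, an unadjusted p under 0.05 and 1.5-fold, 1 gene was higher (F13a1) and 2 were lower (C1qc and Vcam1), against 4.10% and 2.74% of all genes tested, or 6.83% in either direction. The fold was taken on log2(FPKM + 1), and with a pseudocount of 0.1 Adgre1 also counted as higher, which made 2. The median log2 difference was -0.43 over the 6 C1q-type genes, 0.70 over the 2 monocyte genes and 0.26 over Csf1r and Cd68, beside 0.087 over all genes tested. Differences are Hemgn-/- minus WT on the log2(FPKM + 1) scale, so the change of a low gene is understated.

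**Figure D1:**
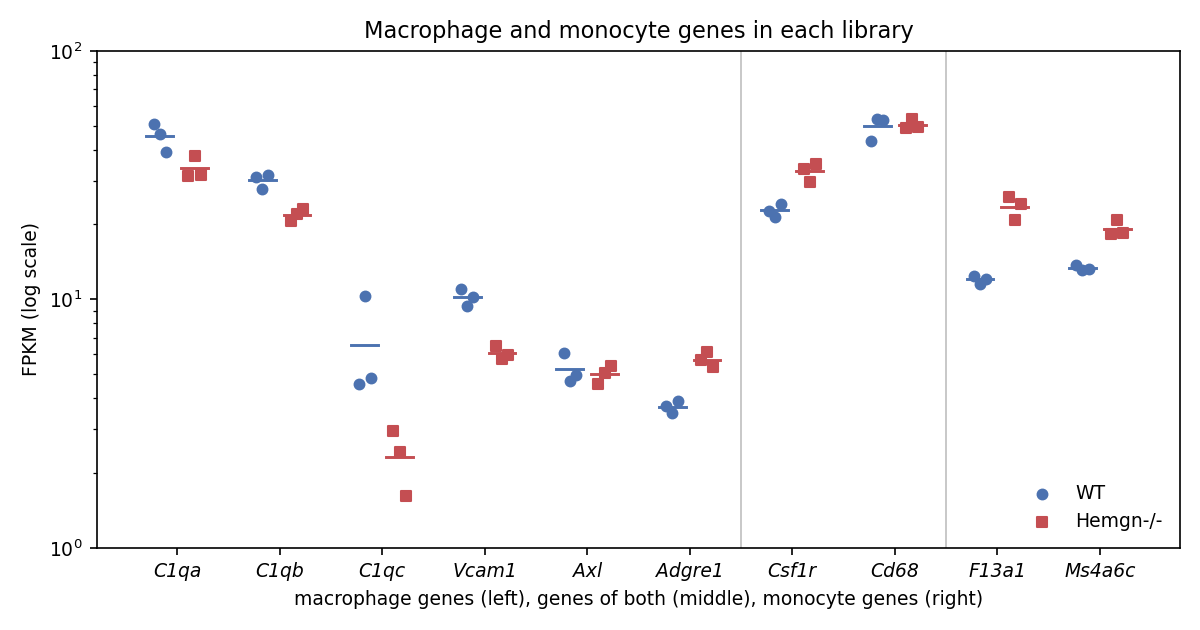
FPKM of the 10 genes in each of the 6 libraries on a log axis, with 1 point per library and a bar at each group mean. The WT and Hemgn-/- points are separate for every gene shown except Axl and Cd68.

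C1qa, C1qb and C1qc encode the A, B and C chains that assemble into C1q, which binds immune complexes and dying cells. The genes lie side by side on the minus strand of chromosome 4, within 18675 bases at chr4:136880129-136898803 in GRCm38. C1qb was at 30.9, 27.8 and 31.5 FPKM in WT replicates 1, 2 and 3 and at 20.6, 22.1 and 23.1 FPKM in Hemgn-/- replicates. Every Hemgn-/- library was below every WT library, with means of 30.1 ± 1.97 and 21.9 ± 1.29 FPKM (SD, n = 3). The log2 difference of C1qb was -0.44 (standard error 0.089, 95% interval -0.64 to -0.24, limma adjusted p = 0.0234). That call was kept in 7 of 15 alternative fits, and of the fits that left out 1 library it was kept only without WT replicate 2, with adjusted p-values from 0.0263 to 0.0844.

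C1qa, the most abundant of the chains, was at 50.9, 46.4 and 39.3 FPKM in WT and at 31.4, 37.7 and 31.7 FPKM in Hemgn-/- libraries. All Hemgn-/- values lay below all WT values, although WT replicate 3 was close to Hemgn-/- replicate 2. On the log2 scale C1qa differed by -0.42 (standard error 0.12, 95% interval -0.69 to -0.16), with a limma adjusted p of 0.0692. It passed 0.05 without WT replicate 3 (0.0490), after median-ratio scaling (0.0347) and after quantile normalization (0.0430).

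C1qc was the lowest of the chains, at 4.57, 10.3 and 4.82 FPKM in WT and at 2.94, 2.43 and 1.61 FPKM in Hemgn-/- libraries. In fragments, C1qc had 209, 509 and 258 in WT against 156, 123 and 90 in Hemgn-/- libraries. The groups did not overlap, and WT replicate 2 stood well above the other WT libraries. The log2 difference of C1qc was -1.12 (standard error 0.28, 95% interval -1.76 to -0.49), with a limma adjusted p of 0.0501, on the other side of the threshold from C1qb. Without WT replicate 2 it was -0.79 with a limma adjusted p of 0.0638, and over all 15 alternatives the adjusted p ranged from 0.0394 to 0.166.

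Within each library the chains kept unequal ratios. C1qa over C1qb was 1.65, 1.67 and 1.25 in WT and 1.53, 1.71 and 1.37 in Hemgn-/- libraries, so this ratio overlapped between groups. C1qb over C1qc was 6.76, 2.70 and 6.54 in WT and 6.99, 9.08 and 14.3 in Hemgn-/- libraries. The WT libraries were lower in that ratio, and WT replicate 1 fell only just below Hemgn-/- replicate 1. The nearest tested genes outside the cluster were Zbtb40, 80929 bases away (log2 difference 0.09, limma adjusted p = 0.827), and Kdm1a, 277406 bases away (-0.26, limma adjusted p = 0.485). Hemgn lies on the same chromosome, 90466623 bases from the cluster.

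Vcam1 encodes an adhesion molecule that holds blood cells through the integrin VLA-4 and is found on resident macrophages and on stromal and endothelial cells. It lies at chr3:116109949-116129688 on the minus strand. Vcam1 was at 11.0, 9.37 and 10.2 FPKM in WT and at 6.50, 5.78 and 5.97 FPKM in Hemgn-/- libraries, a mean ratio of 0.595. All WT libraries were well above all Hemgn-/- libraries. The log2 difference was -0.66 (standard error 0.11, 95% interval -0.91 to -0.42, limma adjusted p = 0.0094), and it passed in all 15 alternatives, with a highest adjusted p of 0.0455. Summed stromal markers were 16.5 to 19.3 FPKM in WT and 14.0 to 19.6 FPKM in Hemgn-/- libraries. Summed endothelial markers were 16.5 to 17.5 and 18.0 to 21.2 FPKM, of which Pecam1, also found on blood cells, made up most (10.1 ± 1.47 and 13.8 ± 1.86 FPKM). Stab2, of sinusoidal endothelium, was lower in every Hemgn-/- library than in any WT library (3.39 and 1.98 FPKM, a mean ratio of 0.584, limma adjusted p = 0.0882), Kdr was at 1.33 and 1.06 FPKM and Emcn at 1.01 and 0.881 FPKM, and the median log2 difference of the 5 tested endothelial markers was -0.10. Going the other way, Tek was at 0.337 and 0.581 FPKM (log2 difference 0.19, limma adjusted p = 0.738). Cdh5, below the filter and so not tested, was at 0.817 and 0.881 FPKM. The part of endothelial cells in the fall of Vcam1 was not tested.

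Axl encodes a receptor tyrosine kinase that takes part in the uptake of dying cells, and lies at chr7:25757273-25788705 on the minus strand. It was at 6.09, 4.68 and 4.98 FPKM in WT and at 4.55, 5.06 and 5.39 FPKM in Hemgn-/- libraries. The groups overlapped throughout. The log2 difference of Axl was -0.05 (95% interval -0.35 to 0.24, limma adjusted p = 0.843), and its sign turned with the scaling to the same FPKM total.

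Adgre1 encodes an adhesion receptor used as a surface marker of mouse macrophages, and lies at chr17:57358691-57483527 on the plus strand. It was at 3.71, 3.49 and 3.88 FPKM in WT and at 5.68, 6.12 and 5.32 FPKM in Hemgn-/- libraries. Unlike the C1q chains and Vcam1, it was higher in every Hemgn-/- library than in any WT library, with a mean FPKM ratio of 1.55. For Adgre1 the log2 difference was 0.51 (standard error 0.11, 95% interval 0.25 to 0.78, limma adjusted p = 0.0343). The call was kept in 3 of 15 alternatives and was lost whichever single library was left out, with limma adjusted p-values from 0.0751 to 0.109.

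Csf1r encodes the receptor for CSF1, a growth factor of monocytes and macrophages, and lies at chr18:61100598-61132149 on the plus strand. It was at 22.7, 21.5 and 24.2 FPKM in WT and at 33.5, 29.7 and 34.9 FPKM in Hemgn-/- libraries, a mean ratio of 1.43. All Hemgn-/- libraries were higher. For Csf1r the log2 difference was 0.50 (standard error 0.093, 95% interval 0.29 to 0.71, limma adjusted p = 0.0161), and it passed in 12 of 15 alternatives, failing without a trend (0.0705), without WT replicate 1 (0.0584) and without Hemgn-/- replicate 3 (0.0813). Csf1r shares 873 exon bases with Hmgxb3 on the opposite strand, whose log2 difference was 0.26 (limma adjusted p = 0.285).

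Cd68 encodes a lysosomal glycoprotein of macrophages and monocytes, and lies at chr11:69664213-69666153 on the minus strand. It was at 43.3, 53.2 and 52.6 FPKM in WT and at 48.7, 53.2 and 49.2 FPKM in Hemgn-/- libraries. The groups overlapped, with a log2 difference of 0.02 (95% interval -0.19 to 0.24, limma adjusted p = 0.913). Its sign turned under median-ratio scaling and under quantile normalization. An interval of this width still allows a shift of either sign, and the test does not show the level to be the same.

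F13a1 encodes the A subunit of coagulation factor XIII, which cross-links fibrin and is a marker of monocytes. It lies at chr13:36867178-37050244 on the minus strand. F13a1 was at 12.5, 11.5 and 12.1 FPKM in WT and at 25.7, 20.8 and 24.2 FPKM in Hemgn-/- libraries, with means of 12.0 ± 0.473 and 23.6 ± 2.51 FPKM (SD, n = 3). Every Hemgn-/- library stood far above the WT libraries, a mean ratio of 1.96. The log2 difference was 0.91 (standard error 0.10, 95% interval 0.68 to 1.14, limma adjusted p = 0.00196), and it passed in all 15 alternatives, with a highest adjusted p of 0.0161.

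Ms4a6c encodes a membrane-spanning protein of the MS4A family found on monocytes and macrophages, and lies at chr19:11469366-11482192 on the plus strand. It was at 13.7, 13.1 and 13.2 FPKM in WT and at 18.3, 20.8 and 18.5 FPKM in Hemgn-/- libraries. The groups did not overlap, and the WT libraries were close to each other. The log2 difference of Ms4a6c was 0.49 (standard error 0.090, 95% interval 0.29 to 0.70, limma adjusted p = 0.0156), which passed in 10 of 15 alternatives and failed without a trend (0.0590) and without WT replicates 1 (0.0503) or 3 (0.0542) or Hemgn-/- replicates 2 (0.0570) or 3 (0.0588). Ms4a6c shares 1088 exon bases with the opposite-strand transcript BE692007, which also rose (log2 difference 0.67, limma adjusted p = 0.0205), so reads of the 2 genes could not be told apart where counting ignored strand.

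**Figure D2:**
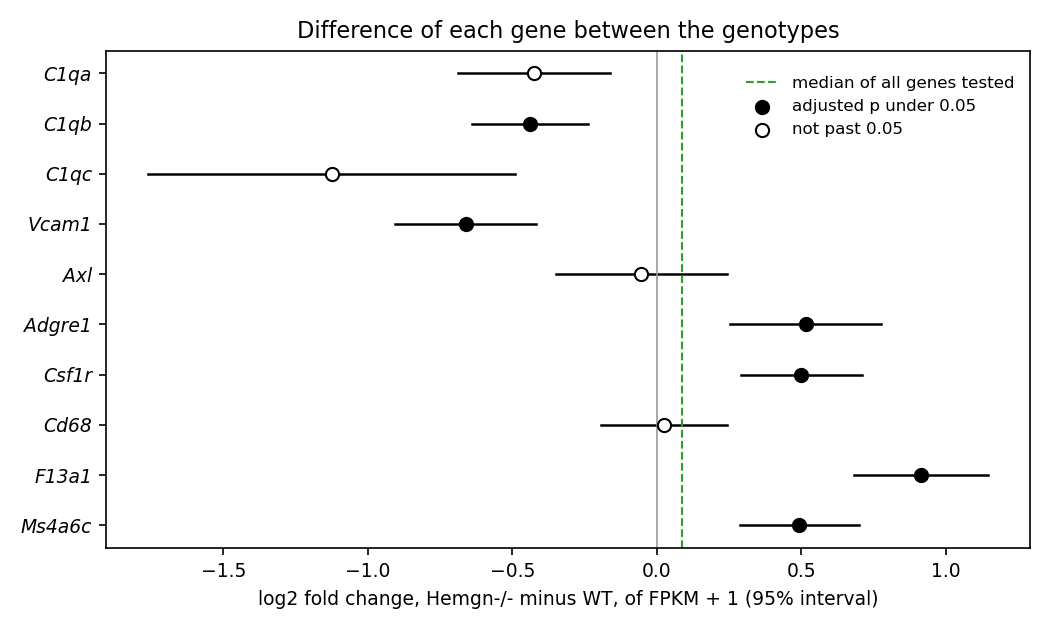
Log2 differences (Hemgn-/- minus WT) of the 10 genes on the log2(FPKM + 1) scale, with 95% intervals from limma, filled points for an adjusted p under 0.05 and a dashed line at the median of all genes tested, 0.087. C1qa, C1qb, C1qc and Vcam1 lie below 0, Adgre1, Csf1r, F13a1 and Ms4a6c lie above 0, and the intervals of Axl and Cd68 span 0.

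The genes could be ordered by level within a group because FPKM is divided by length. In WT libraries Cd68 and C1qa were highest and did not separate from each other beyond their spread, then came C1qb, Csf1r, Ms4a6c and F13a1, all separated from their neighbours in the order. Vcam1, C1qc and Axl followed with overlapping values, and Adgre1 was last. In Hemgn-/- libraries Cd68 was again highest, C1qa and Csf1r overlapped, and in the middle C1qb overlapped with both F13a1 and Ms4a6c, which did not overlap with each other. Vcam1, Adgre1 and Axl followed with overlapping neighbours, and C1qc was lowest. Csf1r lay below C1qb in every WT library and above it in every Hemgn-/- library.

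Levels within the same library can be set against each other without a scale between libraries. The summed FPKM of C1qa, C1qb and C1qc was 86.4, 84.5 and 75.6 in WT and 54.9, 62.2 and 56.4 in Hemgn-/- libraries, whereas that of F13a1 and Ms4a6c was 26.2, 24.6 and 25.3 in WT and 44.1, 41.6 and 42.7 in Hemgn-/- libraries. The ratio of the first sum to the second was 3.30, 3.44 and 2.99 in WT and 1.25, 1.497 and 1.32 in Hemgn-/- libraries. All 3 WT ratios were above all Hemgn-/- ratios. The ratio of the C1q sum to Csf1r was 3.80, 3.93 and 3.12 in WT and 1.64, 2.096 and 1.62 in Hemgn-/- libraries. Against Cd68 the C1q sum was 1.99, 1.59 and 1.44 in WT and 1.13, 1.17 and 1.15 in Hemgn-/- libraries, and the pair of monocyte genes was 0.604, 0.462 and 0.482 and 0.904, 0.781 and 0.869. The ratios of the C1q sum to the monocyte pair and to Csf1r had to separate, and add no support. Each C1q chain alone was lower, and F13a1, Ms4a6c and Csf1r higher, without overlap. Both ratios to Cd68, whose own groups overlapped, also separated the groups. They reuse the same sums, which were already separate, and so are not independent support. Adgre1 and Axl, counted above as C1q-type genes, are not in the C1q sum. Any factor common to a library cancels in such ratios.

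**Figure D3:**
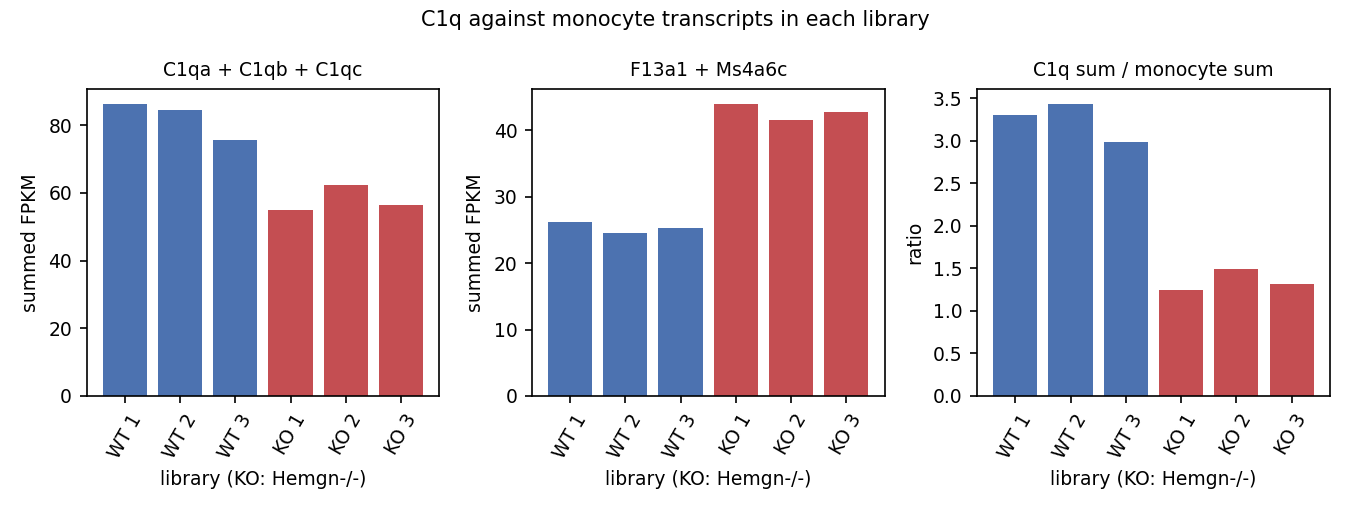
Summed FPKM of C1qa, C1qb and C1qc (left), summed FPKM of F13a1 and Ms4a6c (middle) and the ratio of the first sum to the second (right), 1 bar per library, blue for WT and red for Hemgn-/- (KO). The WT ratios are 2.99 to 3.44 and the Hemgn-/- ratios 1.25 to 1.497.

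Promoters are shown for C1qb and C1qc, which were lower in Hemgn-/- libraries without overlap, and for F13a1 and Ms4a6c, which were higher. No promoter was matched for C1qa. RefSeq promoters (GRCm38.p6) were matched for 6 of the 10 genes, Axl, C1qb, C1qc, Cd68, F13a1 and Ms4a6c, and the 250 bases before each start were searched on both strands for a core PU.1 site (GAGGAA), a MAF half-site (TGCTGA) and an interferon-type GAS site (TTCNNNGAA). Each printed run is given from 5′ to 3′ on the strand of the gene, stops before the annotated exons of the gene, and shows motif matches in capitals. The regions are chr4:136886201-136886450 for C1qb (minus strand), chr4:136893066-136893164 for C1qc (minus strand), chr13:37050245-37050494 for the upstream start of F13a1 (minus strand) and chr19:11469118-11469365 for Ms4a6c (plus strand).
C1qb: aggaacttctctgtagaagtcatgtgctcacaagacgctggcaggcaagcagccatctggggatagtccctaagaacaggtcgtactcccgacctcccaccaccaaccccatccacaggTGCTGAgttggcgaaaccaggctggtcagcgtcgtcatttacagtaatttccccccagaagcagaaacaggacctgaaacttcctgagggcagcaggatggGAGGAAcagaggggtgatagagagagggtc
C1qc: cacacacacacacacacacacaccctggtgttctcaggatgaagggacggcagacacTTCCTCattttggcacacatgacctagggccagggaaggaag
F13a1: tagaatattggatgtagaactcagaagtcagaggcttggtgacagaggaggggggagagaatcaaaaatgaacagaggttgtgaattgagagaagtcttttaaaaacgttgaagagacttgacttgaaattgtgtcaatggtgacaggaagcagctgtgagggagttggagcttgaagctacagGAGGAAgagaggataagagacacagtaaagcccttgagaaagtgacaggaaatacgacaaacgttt
Ms4a6c: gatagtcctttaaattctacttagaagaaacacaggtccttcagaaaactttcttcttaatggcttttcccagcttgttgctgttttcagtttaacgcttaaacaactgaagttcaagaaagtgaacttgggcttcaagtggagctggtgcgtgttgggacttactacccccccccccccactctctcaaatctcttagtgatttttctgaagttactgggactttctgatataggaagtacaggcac
The capitals mark a MAF half-site at -131 and a PU.1 core at -30 in C1qb. A PU.1 core is also marked at -193 in C1qc and at -66 in F13a1. Positions are counted from the RefSeq start. The C1qc run ends well before that start, because the start lies inside the annotated gene. Ms4a6c had no match, and neither did a second F13a1 start in the table, at chr13:37049289-37049463, whose sequence is not printed. Axl had a PU.1 core at -130 and Cd68 at -225, and no GAS site was found in any of them. Of all 32851 promoters searched, 23.3% held the PU.1 core, 16.1% the MAF half-site and 7.02% the GAS site. A match is a run of letters and does not show that a factor binds there.

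Other genes of the same cells and pathways were read from lists of known function. The counts of these lists stand beside 4.37% higher and 2.09% lower over all genes tested, or 6.46% in either direction. A count of 1 among 13 tested genes, as in the macrophage and complement lists, is near that share. Among 13 tested of 20 other genes of tissue-resident macrophages, none was higher and 1 was lower, with a median log2 difference of 0.020. Apoe, a lipid carrier made in quantity by macrophages, was the gene that fell, from 87.6 ± 2.196 to 67.4 ± 4.98 FPKM (SD, n = 3; log2 difference -0.37, limma adjusted p = 0.0232), a call kept without WT replicate 2 or Hemgn-/- replicate 2 and lost without any other single library. Marco, a scavenger receptor, had a log2 difference of 0.65 (limma adjusted p = 0.153), Cd5l, a protein secreted by macrophages, -0.37 (limma adjusted p = 0.170) and Cd163, the hemoglobin scavenger receptor, -0.27 (limma adjusted p = 0.326). Mertk, Timd4, Maf, Trem2, Folr2, Itgad and Gpnmb, further genes of resident macrophages, were under 1 FPKM in every library.

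Among 18 tested of 20 other monocyte genes, 6 rose, 1 fell and 11 did not pass, with a median log2 difference of 0.33. Over all genes tested, 4.37% rose and 2.09% fell. Ccr2, the chemokine receptor through which monocytes leave the marrow, rose from 15.7 ± 0.599 to 32.7 ± 3.92 FPKM (SD, n = 3; log2 difference 1.00, limma adjusted p = 0.0014). Ms4a4c, of the same family as Ms4a6c, rose from 48.7 ± 4.06 to 87.9 ± 3.11 FPKM (0.84, limma adjusted p = 0.000918), and Fn1, fibronectin, from 1.33 ± 0.205 to 4.12 ± 0.280 FPKM (1.14, limma adjusted p = 0.0030). Mpeg1, a pore-forming protein, rose by 0.49, Ctss, a lysosomal protease, by 0.36 and Ccl9, a chemokine, by 0.40 on the log2 scale. Lyz2, the lysozyme of myeloid cells including neutrophils, fell from 24118 ± 1402 to 18724 ± 2250 FPKM (log2 difference -0.37, limma adjusted p = 0.0454). Ly6c2 was at 297 ± 28.9 and 251 ± 40.8 FPKM, with overlapping groups (log2 difference -0.25, limma adjusted p = 0.277). Lyz2 and Ly6c2 were named after their values were seen. With each library left out in turn, Ccr2, Ms4a4c, Fn1 and Mpeg1 passed in 6 of 6 fits, Ctss in 3 (not without WT replicate 3 or Hemgn-/- replicates 2 or 3), Ccl9 in 1 (without Hemgn-/- replicate 3) and Lyz2 in 0. Summed neutrophil markers were also lower in Hemgn-/- libraries, and the part of neutrophils in the fall of Lyz2 was not tested. Summed dendritic and B cell markers were higher there, and the part of those cells in the rises of this list was not tested.

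The complement list had 13 tested of 18 genes, of which 1 rose and none fell on the deposited values, while with median-ratio scaling and with quantile normalization none rose and 1, C3, fell. Cd55, which limits complement on cell surfaces, rose from 28.4 ± 0.882 to 37.8 ± 2.45 FPKM (log2 difference 0.40, limma adjusted p = 0.0236), a call kept only without Hemgn-/- replicate 2 among the fits that left out 1 library, and C3, the central component, was at 72.6 ± 7.60 and 57.1 ± 3.69 FPKM (-0.34, limma adjusted p = 0.0774). The median log2 difference of the list was 0.035. Among 9 tested of 15 phagocytic receptors and bridging proteins none passed (2 at an unadjusted p under 0.05, 1 by voom). Gas6, a bridging ligand of AXL, was at 2.80 and 1.72 FPKM (limma adjusted p = 0.149) and Stab2, a scavenger receptor of sinusoids, at 3.39 and 1.98 FPKM (limma adjusted p = 0.0882), while Elmo1, an adaptor for engulfment, was at 35.6 and 36.9 FPKM and Pros1, another bridging protein, had a log2 difference of -0.07.

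Of 9 tested genes among CSF1 receptor ligands and transcription factors of the lineage, 2 rose and 1 fell. Irf8, a factor that favours monocytes and dendritic cells over neutrophils, rose from 39.2 ± 0.609 to 66.7 ± 1.89 FPKM (log2 difference 0.75, limma adjusted p = 0.000657), and Egr2, a factor of myeloid differentiation, rose by 0.55 (limma adjusted p = 0.0340). Spi1, which encodes PU.1, fell by 1.01 on the log2 scale (limma adjusted p = 0.0399), from 179, 335 and 220 FPKM in WT to 150, 115 and 91.8 FPKM in Hemgn-/- libraries. Without WT replicate 2 the log2 difference of Spi1 was -0.76 and its limma adjusted p was 0.0627, and the call also failed without WT replicate 3 and without Hemgn-/- replicates 2 or 3. Irf8 passed with each library left out, and Egr2 in 0 of 6 such fits. Klf4 was higher in Hemgn-/- libraries without overlap (log2 difference 0.62, limma adjusted p = 0.119), and Cebpb was lower without overlap (-0.47, limma adjusted p = 0.189). Csf1, the ligand of the receptor, had a log2 difference of 0.09 (limma adjusted p = 0.795), and Il34, the other ligand, was under 1 FPKM.

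Of 3 tested VCAM1 partner integrins, 1 rose: Itgb7 from 61.8 ± 4.75 to 87.4 ± 5.87 FPKM (log2 difference 0.49, limma adjusted p = 0.0113, and 0.0509 without WT replicate 1), while Itga4, the alpha chain of VLA-4, had a log2 difference of 0.46 (limma adjusted p = 0.0555). Of 8 tested MS4A genes 2 rose and 1 fell. Ms4a1, the B cell antigen CD20, rose from 54.4 ± 1.74 to 85.4 ± 3.28 FPKM (log2 difference 0.64, limma adjusted p = 0.00168), together with Ms4a4c, and Ms4a3, a gene of granulocyte and monocyte precursors, fell from 14.9 ± 1.02 to 8.51 ± 1.66 FPKM (-0.76, limma adjusted p = 0.0163, lost without WT replicates 1 or 3 or Hemgn-/- replicate 3). The nearest tested neighbours of Ms4a6c on the chromosome were Ms4a4b, 2311 bases away (0.27, limma adjusted p = 0.0974), and Gm8369, 3746 bases away (0.60, limma adjusted p = 0.0324).

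**Figure D4:**
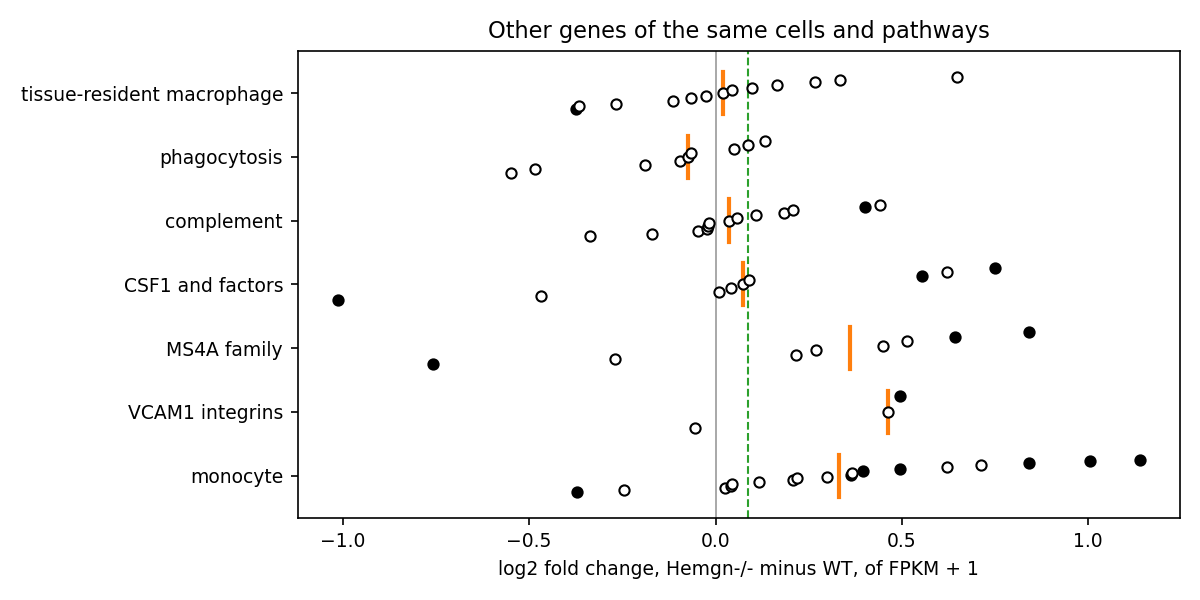
Log2 differences (Hemgn-/- minus WT) of the tested genes in each list, 1 point per gene on the log2(FPKM + 1) scale, filled for an adjusted p under 0.05, with an orange bar at the median of the list and a dashed line at the median of all genes tested, 0.087. The monocyte list lies mostly above 0, at a median of 0.33, and the list of resident macrophages has a median of 0.020.

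The genes most like the mean profile of C1qa, C1qb and C1qc were found by the root mean square difference of centred log2(FPKM + 1) values over the 6 libraries. Among 13710 genes these were Car3 (0.063), H2-K1 (0.068), Pik3cb (0.071), Nuf2 (0.090) and Agtrap (0.090), with 0.35 for the size of the profile itself. The genes most like F13a1 and Ms4a6c were Swap70 (0.041), 9930111J21Rik2 (0.044), Arhgef3 (0.052), Fcmr (0.052) and Gbp7 (0.052), against 0.35. These profiles rest on 6 libraries that fall into 2 groups. Of the C1q chains only C1qc was highest in WT replicate 2. Car3, H2-K1, Pik3cb and Agtrap were also highest in that library, so their likeness rests partly on C1qc.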

How the data were processed

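RNA-seq was read from donor cells of 3 WT and 3 Hemgn-/- libraries grouped by the genotype in the sample labels. Expression was deposited by the authors as FPKM, with a column for each library. The submitters' processing notes name HISAT2 2.1.0, Bowtie2 2.2.3, TopHat2, HTSeq 0.6.0 and GRCm38, and the annotation is not given in the sources used here. FPKM steps gave depths of 23668015 to 28897360 fragments (95.7% of 13472 low genes were whole within 0.05 fragments in all 6 libraries), so that 1 fragment on 1 kb is 0.0346 to 0.0423 FPKM. Amplified fragments are not independent molecules. Replicates differed beyond sampling noise (chi-square per gene 17.5 to 35.2), and none was counted as a copy.

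Of 24965 genes, 24921 matched GENCODE M21 by identifier. Values were taken as log2(FPKM + 1) where any library exceeded 1 FPKM and were fitted in R 4.3.3 by limma 3.58.1 (eBayes with a trend, no covariate, two-sided, Benjamini-Hochberg over all 13739 genes). With 3 against 3 libraries an exact permutation test of 1 gene cannot give p below 0.1. The method was tested on simulated data that gave every gene the same spread beyond sampling. That setting differs from these libraries, so the simulation does not bear on the single calls above. Alternatives were a pseudocount of 0.1, 2 other filters, 3 scalings, no trend, a replicate block, voom on recovered fragments and leaving out each library. The members, lists, motifs and tests were chosen with earlier results of these data known. Named genes were the 10 members, up to 6 per list by smallest adjusted p (and the 2 most highly expressed where none passed), the 5 most alike profiles, Hemgn and neighbours. Kit, as a marker of the sort, Lyz2 and Ly6c2 were named outside this rule, after their values were seen. Il34, other genes under 1 FPKM and genes that overlap a member were also named outside it. Python 3.11.15 with pandas 2.3.3, numpy 2.4.6, scipy 1.17.1 and matplotlib 3.10.9 did the rest.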

Additional observations from a re-analysis of the deposited data

How the results depend on the processing

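F13a1 and Vcam1 kept their direction and an adjusted p under 0.05 in all 15 alternatives, and the direction of the other genes held except for Cd68 and Axl. With each library left out in turn, log2 differences ranged from -0.52 to -0.34 for C1qa, -0.49 to -0.40 for C1qb, -1.30 to -0.79 for C1qc, 0.45 to 0.57 for Csf1r, 0.47 to 0.56 for Adgre1, -0.72 to -0.61 for Vcam1, -0.12 to 0.040 for Axl, 0.85 to 1.00 for F13a1, 0.44 to 0.52 for Ms4a6c and -0.069 to 0.076 for Cd68, whose sign turned without WT replicate 1 (-0.069) and without Hemgn-/- replicate 2 (-0.015). Cd68 also turned with median-ratio scaling (-0.076) and quantile normalization (-0.043), and Axl with rescaling to the same total (0.022) and without WT replicate 1 (0.040). C1qa passed with median-ratio scaling (-0.52) and quantile normalization (-0.50). C1qc passed with a pseudocount of 0.1 (-1.39), a mean FPKM of at least 1 (-1.12), median-ratio scaling (-1.20), rescaling to the same total (-1.22), quantile normalization (-1.21) and voom (-1.44). Calls were lost without a trend for C1qb (-0.44), Csf1r (0.50), Ms4a6c (0.49) and Adgre1 (0.51), with voom for C1qb (-0.46) and Adgre1 (0.62), and for Adgre1 with no filter (0.51), median-ratio scaling (0.43) and quantile normalization (0.43). The cause was not tested. The replicate block, for numbers that only name the libraries (correlations of same-numbered deviations -0.043, -0.0094 and 0.011), lost C1qb (-0.44) and Adgre1 (0.51), gained C1qc (-1.12) and gave 636 calls over all genes against 887. The count of members past the adjusted p was 1 higher and 1 lower without a trend, 4 lower with median-ratio scaling and with quantile normalization, and 1 to 3 higher and 1 to 2 lower with a library left out. At the study's thresholds the higher count was 2 with a pseudocount of 0.1, 4 with rescaling and 2 with voom, and the median of F13a1 and Ms4a6c was 0.74, 0.61, 0.82, 0.62 and 0.75 with a pseudocount of 0.1, median-ratio scaling, rescaling, quantile normalization and voom. It was 0.68 to 0.72, and that of the C1q-type genes -0.48 to -0.38, with a library left out. The median over all genes was 0.0076, 0.012 and 0.18 with median-ratio scaling, quantile normalization and rescaling, and the count over all genes was 466 without a filter, 390 without a trend and 373 to 688 with a library left out. The same alternatives, applied to the lists after seeing the data, gave 3 to 7 higher monocyte genes, 2 to 5 lower neutrophil markers, 1 to 4 higher B cell markers, 0 to 3 higher HSPC markers, and 3 lower erythroid markers and 1 higher dendritic marker throughout. Low FPKM and 3 libraries per group limit the precision.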

Other observations

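WT replicate 2 had 534 of 13739 genes at least 1.5-fold above both other WT libraries, against 279 to 332 in the other libraries. C1qc and Spi1 were highest in that library.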
